A study of Mus musculus with 9 samples.

Results

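Zic1, Zic2, Zic4 and Zic5 belong to the Zic family of zinc finger transcription factors, and they are 4 of the 19087 genes named in the array annotation. They were taken by gene symbol and not by a cut on their values, but the choice was made with earlier results of these data known. They occupy 6 of the 45220 array features, 2 each for Zic1 and Zic4 and 1 each for Zic2 and Zic5. RNA came from postnatal day 20 cerebella of SmoA1 mice, a strain prone to medulloblastoma, which were either Pycard wild-type (5 arrays) or Pycard knockout (4 arrays). All 9 samples carried SmoA1, and each was hybridised in Cy5 against a Cy3 pool of wild-type cerebella from postnatal day 16. SmoA1 is an activated form of the Hedgehog transducer Smoothened, which in the strain known by this name is driven by a Neurod2 promoter in cerebellar granule neurons and their precursors. The labels do not state the promoter, how many animals went into the pool, or whether each array is a separate animal, so the p-values speak only of how far these samples spread, and part of that may be technical. Each value is a log2 ratio of sample over pool, so 0 means the same signal as the pool and 1 a doubled one.

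Zic proteins bind DNA through a cluster of C2H2 zinc fingers closely related to those of the Gli factors, the transcription factors of the Hedgehog pathway. In the cerebellum they mark the granule neuron lineage, from dividing progenitors to mature granule cells, and they are also present in meningeal cells and in some interneuron precursors. Zic1 is needed in mice for the cerebellum to reach its normal size and foliation, and a deletion that removes ZIC1 together with its neighbour ZIC4 has been linked in humans to Dandy-Walker malformation. ZIC2 is a holoprosencephaly gene in humans. Zic5 acts in mice in neural tube closure and neural crest formation. In bulk cerebellum, a change in the number of cells of a type and a change in the RNA per cell cannot be told apart.

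The 4 genes lie as neighbouring pairs, Zic1 with Zic4 on chromosome 9, with no annotated gene between them, and Zic2 with Zic5 on chromosome 14, with 1 noncoding gene between them. The RefSeq promoter table of build GRCm38.p6 matched 3 of the 4 members, Zic1, Zic4 and Zic5. The promoters are shown to let the sequence upstream of the neighbours Zic1 and Zic4 be compared with that of Zic5, and each holds 250 bases before and 50 after an annotated start, written 5′ to 3′ along the gene. Capitals mark matches, on either strand, to the GC box GGGCGG and to CCAAT.
Zic1, chr9:91365719-91366018, minus strand: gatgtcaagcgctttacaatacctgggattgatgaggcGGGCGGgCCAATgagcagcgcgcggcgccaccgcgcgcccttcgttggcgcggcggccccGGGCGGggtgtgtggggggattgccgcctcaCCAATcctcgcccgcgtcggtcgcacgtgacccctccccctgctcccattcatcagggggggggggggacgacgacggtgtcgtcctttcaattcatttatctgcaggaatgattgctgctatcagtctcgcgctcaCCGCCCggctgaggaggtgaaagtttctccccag
Zic4, chr9:91368722-91369021, plus strand: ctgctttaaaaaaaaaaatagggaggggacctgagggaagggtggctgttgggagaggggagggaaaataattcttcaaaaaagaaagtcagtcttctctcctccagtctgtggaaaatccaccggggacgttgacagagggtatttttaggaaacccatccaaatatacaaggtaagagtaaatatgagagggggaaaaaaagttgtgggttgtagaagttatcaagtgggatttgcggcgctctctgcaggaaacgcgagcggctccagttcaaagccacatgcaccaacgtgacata
Zic5, chr14:122465609-122465908, minus strand: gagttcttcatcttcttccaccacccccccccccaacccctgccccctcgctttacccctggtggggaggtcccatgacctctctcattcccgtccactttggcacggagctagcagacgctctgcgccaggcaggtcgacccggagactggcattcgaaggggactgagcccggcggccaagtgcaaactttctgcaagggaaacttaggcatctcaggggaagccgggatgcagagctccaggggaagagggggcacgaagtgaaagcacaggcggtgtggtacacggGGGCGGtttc
The Zic1 and Zic4 starts in this table are 3204 bases apart and the genes run away from each other. The Zic1 promoter is 65.3% G and C, higher than 82.3% of the 32851 promoters in the table, and holds 31 CG dinucleotides, 3 GC boxes and 2 CCAAT matches. The Zic4 promoter is 46.0% G and C with 8 CG dinucleotides, and it holds neither motif. The Zic5 promoter is 62.7% G and C with 15 CG dinucleotides and has 1 GC box. GGGCGG occurs in 35.7% of all promoters of this length and CCAAT in 37.4%. The Gli-type core GACCACCC (in 0.807% of promoters), the E-box CAGCTG (16.3%) and TATAAA (13.6%) matched none of these 3 windows, and no matches overlapped. A match is only a run of letters in this window and was not tested as a binding site.

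Pycard, the targeted gene, separated the 2 genotypes, with log2 ratios between 0.72 and 1.32 on the wild-type arrays and between -2.83 and -1.48 on the knockout arrays. Array medians lay within 0.013 of 0, while the SD over features ran from 0.552 on knockout 1 to 1.12 on wild-type 4. Of the 9 arrays, 6 have titles that end in a letter and 3 (wild-type 4, wild-type 5 and knockout 4) in a number. The labels do not say what the style means, and exact zeros make up 6.52% to 7.35% of the number-titled arrays and at most 3.49% of the others. Values are therefore also given within each style.

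Zic1 stood above the pool on 8 of 9 arrays. On the wild-type arrays 1 to 5 its log2 ratio was 0.87, 0.61, 0.44, -0.61 and 0.98, and on the knockout arrays 1 to 4 it was 0.80, 1.17, 0.76 and 0.57. The genotypes overlapped, and wild-type 4 was the single array below 0. Its 2 features agreed closely on each array, with a mean absolute difference of 0.10 (lower than in all but 2.0% of the 5221 genes with 2 features) and a correlation of 0.98 over the 9 arrays (median of those genes 0.36), so the low value on wild-type 4 was present in both (-0.54 for feature 205 and -0.68 for feature 4751). Wild-type 4 was also the array with the widest spread over features and with the highest mean of the proliferation list, 3.61, and the part of either in the Zic1 value was not tested. Wild-type arrays averaged 0.46 ± 0.63 (SD, n = 5), and knockout arrays averaged 0.82 ± 0.25 (SD, n = 4). Neither mean passed limma's test against the pool, with adjusted p = 0.156 and adjusted p = 0.0752. Without wild-type 4 the wild-type mean was 0.72 and passed (adjusted p = 0.00629), and so did the knockout mean of 0.82 (adjusted p = 0.0107), because the pooled spread was smaller.

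Zic4, the neighbour of Zic1, was above the pool on every array, and its 2 features gave very different sizes. Feature 25926, annotated to the RefSeq transcript, read 0.66, 0.47, 0.575, 0.70 and 0.46 on the wild-type arrays and 0.205, 0.37, 0.27 and 0.195 on the knockout arrays. All 4 knockout values lay below all 5 wild-type values, as they did in 0.909% of all features. Feature 19919, annotated to a GenBank cDNA, read 1.87, 2.56, 1.395, 3.07 and 0.665 on the wild-type arrays and 3.05, 2.66, 1.09 and 0.18 on the knockout arrays. Here the genotypes overlapped over nearly their whole range, and the SD over 9 arrays was 1.07 against 0.19 for feature 25926. The features differed by 1.41 on average, more than in 97.5% of genes with 2 features, and correlated at 0.29. Whether 1 of the features was dim could not be checked, since the ratios carry no intensities.

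Averaged over its features, Zic4 reached 2.37 times the pool in wild-type, a log2 ratio of 1.24 ± 0.505 (SD, n = 5), and 2.0 times in knockout, where it was 1.003 ± 0.69 (SD, n = 4). The wild-type mean passed limma's test (95% interval 0.68 to 1.80, adjusted p = 0.00737), and the knockout mean did not (adjusted p = 0.0644). The wild-type call was kept with any 1 array left out and by each feature alone, with 0.57 for feature 25926 (adjusted p = 0.000635) and 1.91 for feature 19919 (adjusted p = 0.0162). Without knockout 4, the lowest Zic4 array, the knockout mean was 1.275 and passed (adjusted p = 0.0466). The size of the Zic4 ratio thus depended on the feature, and its direction did not.

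Zic2 stood below the pool on all 9 arrays. Its log2 ratio was -0.99, -1.02, -0.96, -0.70 and -0.08 on the wild-type arrays and -0.90, -0.96, -1.13 and -0.12 on the knockout arrays. The 6 letter-titled arrays lay close together, between -1.13 and -0.90 whatever their genotype, and the 3 number-titled arrays were all higher, between -0.70 and -0.08. How many of all features separate the title styles in this way was not counted, so this may not be particular to Zic2. The wild-type mean was -0.75 ± 0.39 (SD, n = 5), 0.595 times the pool, and passed limma's test (95% interval -1.16 to -0.35, adjusted p = 0.0161). This call was lost without wild-type 1 (-0.69, adjusted p = 0.0512), wild-type 2 (-0.68, adjusted p = 0.0567) or wild-type 3 (-0.70, adjusted p = 0.0526). The knockout mean was -0.78 ± 0.45 (SD, n = 4) and did not pass (adjusted p = 0.0506), but passed without wild-type 5 (adjusted p = 0.0349) or knockout 4 (-0.999, adjusted p = 0.0312). With the title style as a block both passed, wild-type at -0.68 (adjusted p = 0.00173) and knockout at -0.60 (adjusted p = 0.0161).

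Zic5, the neighbour of Zic2, lay on both sides of the pool. Its log2 ratio was -0.17, -0.53, -0.50, 0.33 and 0.56 on the wild-type arrays and -1.26, -0.63, -0.32 and 0.14 on the knockout arrays. It too was higher on the number-titled arrays, all 3 of which were above 0 (0.14 to 0.56), while all 6 letter-titled arrays were below 0 (-1.26 to -0.17). Here as well the share of all features that separate the styles was not counted. Wild-type averaged -0.06 ± 0.49 (SD, n = 5) while knockout averaged -0.515 ± 0.59 (SD, n = 4), and neither passed limma's test against the pool (adjusted p = 0.872 and adjusted p = 0.263). The knockout mean was -0.27 without knockout 1. Knockout 1, the lowest Zic5 array, was also the array with the lowest proliferation mean (0.99), and the link was not tested.

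**Figure D1:**
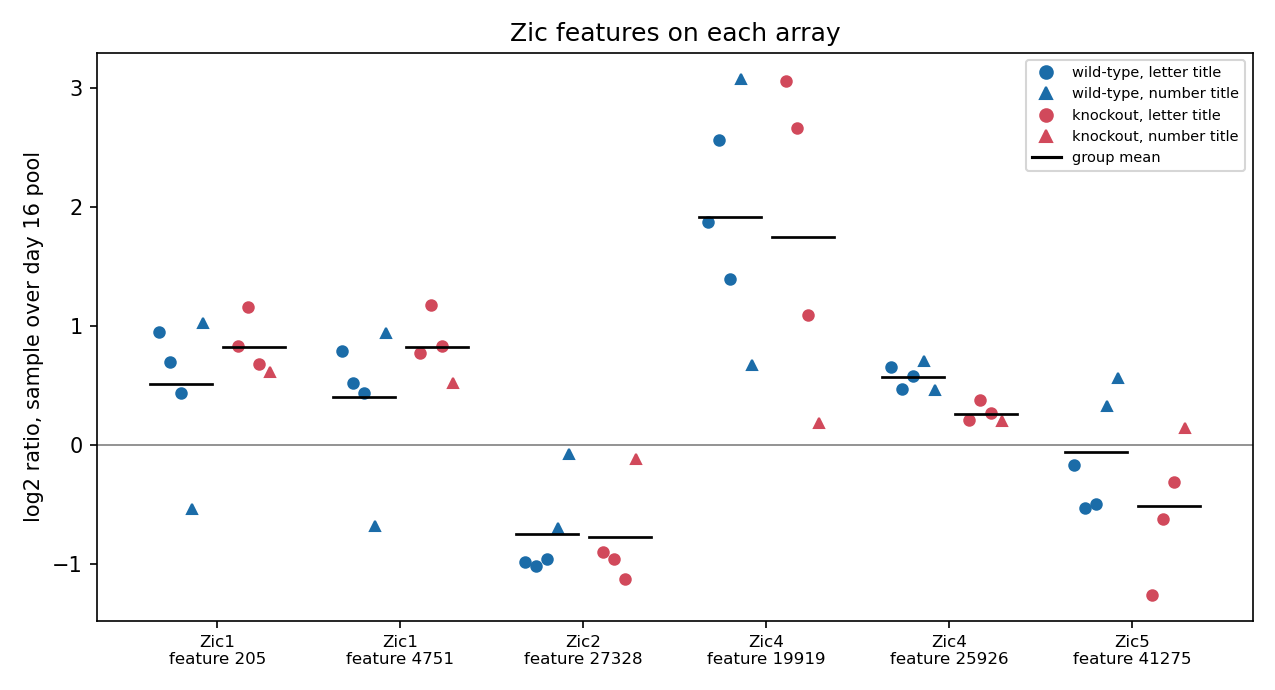
Log2 ratio over the day 16 pool (vertical axis) for each of the 6 Zic features on each array, with blue wild-type and red knockout points, circles for letter-titled and triangles for number-titled arrays, and black bars at group means. Zic2 is below 0 on all 9 arrays and Zic4 above 0 on all 9. Feature 25926 is the Zic feature whose genotypes do not overlap, with knockout lower, as in 0.909% of all features.

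In all, limma called 1 of the 4 members higher than the pool (Zic4) and 1 lower (Zic2) in wild-type, where 12.9% of all 30654 values were called higher and 12.1% lower. In knockout it called 0 of 4, where 4.28% of all values were called higher and 3.35% lower. Those shares are at the adjusted threshold. At an unadjusted p under 0.05 there were 3 of 4 members in knockout. These were Zic2, Zic4 and Zic1, which ranked 2358, 2825 and 3188 by p among the 30654 values. The share of all values under the unadjusted cut was not counted, so the 3 of 4 has no background beside it. Whether a member was called in 1 genotype and not in the other is no test of a difference between them, which is given separately. The sample and the pool differ in age, in SmoA1 and in dye at once, and on the knockout arrays also in Pycard. No array has the dyes exchanged, so these cannot be told apart in any ratio over the pool.

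None of the 4 members passed the test between Pycard knockout and wild-type. Zic1 was higher in knockout by 0.37 on the log2 scale (SE 0.318, 95% interval -0.36 to 1.09, limma adjusted p = 0.948) and Zic5 lower by -0.45 (SE 0.335, 95% interval -1.22 to 0.31, limma adjusted p = 0.943). Zic4 differed by -0.24 (SE 0.369, 95% interval -1.08 to 0.60, limma adjusted p = 0.963) and Zic2 by -0.03 (SE 0.266, 95% interval -0.64 to 0.58, limma adjusted p = 1.0). No member reached an unadjusted p under 0.05 either, which 1656 of the 30654 values did. At the adjusted threshold 0.0163% of all values were called, 5 of 30654. These intervals include changes of more than 1.5 times in linear terms in at least 1 direction for every member, so they do not show that the genotypes were alike. The Zic1 difference shrank to 0.098 without wild-type 4, and that of Zic5 to -0.205 without knockout 1. With the replicate number as a block the differences were 0.50 for Zic1, 0.14 for Zic2, -0.41 for Zic4 and -0.30 for Zic5, and 0 of 4 passed. Within the letter-titled arrays they were 0.27, -0.009, 0.021 and -0.335, in the same order, and within the number-titled arrays, which hold 1 knockout array, 0.38, 0.27, -1.04 and -0.30.

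Among single features, feature 25926 of Zic4 had the smallest p of the 6. It was lower in knockout by -0.31 (SE 0.10, 95% interval -0.54 to -0.08), a ratio of 0.806 of the wild-type value, and it ranked 475 by p among the 45220 features without passing (limma adjusted p = 0.925). Groups that do not overlap, with knockout lower, occurred in 0.909% of all features, and single features past the threshold in 0.0111%. The other Zic4 feature differed by -0.17 (SE 0.692, limma adjusted p = 0.989), and its interval of -1.74 to 1.41 contains the value of feature 25926. The 2 features of Zic1 differed between genotypes by 0.31 and 0.42 without passing (limma adjusted p = 0.950 and adjusted p = 0.946). Feature 25926 was singled out here after its values were seen.

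**Figure D2:**
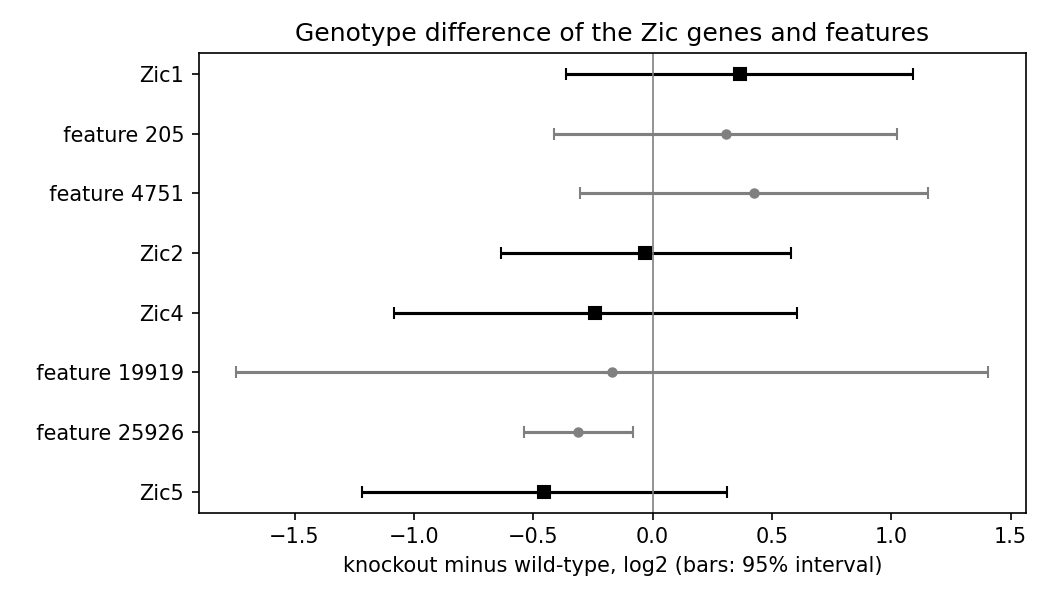
Knockout minus wild-type on the log2 scale (horizontal axis) with 95% intervals from limma, black squares for genes and grey circles for the single features of Zic1 and Zic4. The interval of each of the 4 genes includes 0, and that of feature 25926, from -0.54 to -0.08, does not, although its adjusted p is 0.925.

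The members stood at different ratios to the pool on the same arrays. From highest to lowest the mean over 9 arrays ran Zic4, Zic1, Zic5, Zic2. All 9 arrays share the pool and the dye order, so a fixed error from either enters every array with the same sign. A test of differences between members cannot separate such an error from a difference in the RNA. It also takes the arrays as independent units. Whether the calls hold with the replicate numbers as units was not tested. Differences within each array were compared for the 6 pairs by an exact two-sided sign-flip permutation test, which with 9 arrays cannot go below p = 0.00391, with adjustment over the 6 pairs. Zic1 exceeded Zic2 on 9 of 9 arrays, by 1.38 ± 0.66 (SD, n = 9, exact p = 0.00391, adjusted p = 0.0117), and Zic4 exceeded Zic2 on 9 of 9 arrays, a Zic2 minus Zic4 difference of -1.90 ± 0.86 (SD, n = 9, exact p = 0.00391, adjusted p = 0.0117). The chromosome 14 neighbours also differed, with Zic2 below Zic5 on 8 of 9 arrays by -0.50 ± 0.41 (SD, n = 9, exact p = 0.0156, adjusted p = 0.0234). Zic4 exceeded Zic5 by 1.40 ± 0.95 (SD, n = 9, exact adjusted p = 0.0156) and Zic1 exceeded Zic5 by 0.88 ± 0.87 (SD, n = 9, exact adjusted p = 0.0281), each on 8 of 9 arrays. The Zic1 over Zic5 call was lost without wild-type 1, wild-type 2, knockout 1, knockout 2 or knockout 3 (0.73 to 0.86, exact adjusted p = 0.0563 in each).

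For the chromosome 9 neighbours the order depended on the Zic4 feature. Zic1 lay below the averaged Zic4 on 6 of 9 arrays, by -0.52 ± 0.88 (SD, n = 9, exact p = 0.0938, adjusted p = 0.0938), and by -0.27 without wild-type 4 (exact adjusted p = 0.188). Taking Zic4 from feature 19919 alone made the difference -1.22 (exact adjusted p = 0.0234), and taking it from feature 25926 alone turned it to 0.185 (exact adjusted p = 0.402). No order of Zic1 and Zic4 was therefore shown. With either Zic4 feature alone Zic2 still lay below Zic4, by -2.60 for feature 19919 and -1.20 for feature 25926, and Zic4 above Zic5, by 2.10 and 0.70 (exact adjusted p between 0.00781 and 0.0234).

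**Figure D3:**
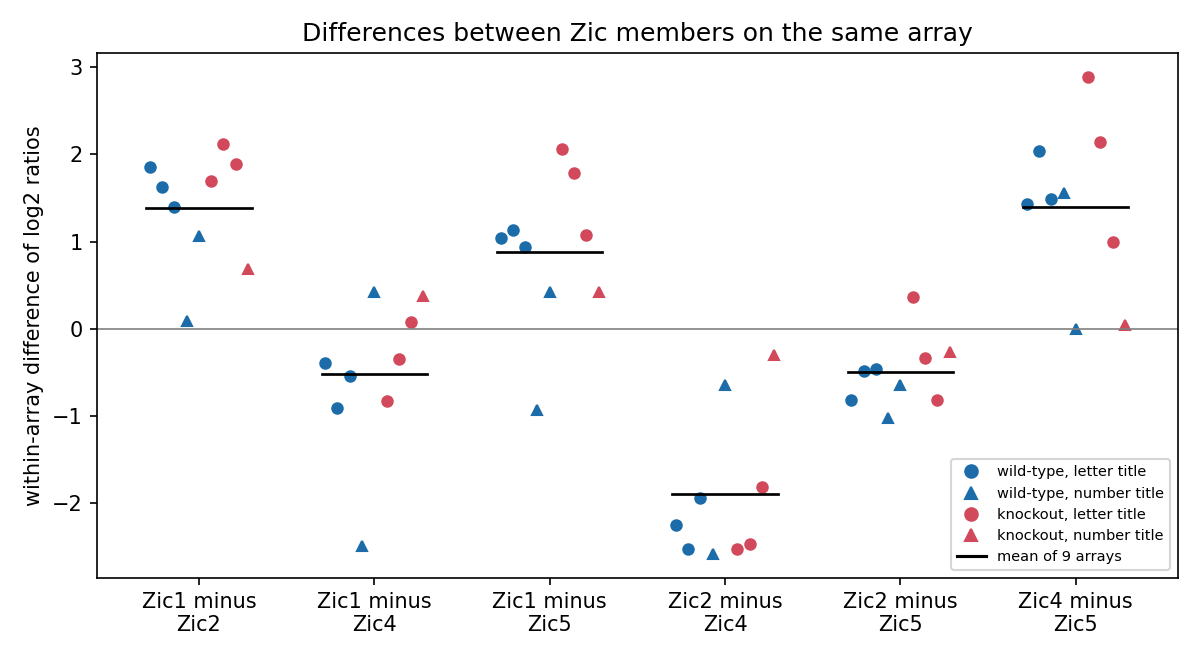
Difference of the log2 ratios of 2 Zic members on the same array (vertical axis) for the 6 pairs, with colours for genotype, shapes for title style and black bars at the mean of 9 arrays. All 9 points lie above 0 for Zic1 minus Zic2 and below 0 for Zic2 minus Zic4.

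None of these gaps between members passed the test between the genotypes. By an exact two-sided permutation test over all divisions of 9 arrays into 5 and 4, adjusted over the 6 pairs, the genotype difference of a gap ran from 0.21 for Zic2 minus Zic4 (adjusted p = 0.746) to 0.82 for Zic1 minus Zic5 (exact p = 0.206, adjusted p = 0.619). The smallest p of the 6 was exact p = 0.135, for Zic2 minus Zic5 (-0.69 in wild-type and -0.26 in knockout, adjusted p = 0.619). Single arrays moved these differences. Without wild-type 4 the genotype difference went from 0.82 to 0.455 for Zic1 minus Zic5, from 0.605 to 0.18 for Zic1 minus Zic4 and from 0.39 to 0.115 for Zic1 minus Zic2. Without knockout 1 that of Zic2 minus Zic5 went from 0.42 to 0.22. With same-numbered arrays taken as 4 pairs, Zic1 minus Zic5 was higher in knockout in 4 of 4 pairs, by 1.02, 0.66, 0.14 and 1.36. An exact two-sided sign-flip permutation test gave p = 0.125 for it, the smallest that 4 pairs allow (adjusted p = 0.500). The other 5 gaps were higher in knockout in 2 or 3 of 4 pairs, with exact adjusted p from 0.500 to 0.875.

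Neighbouring members did not rise and fall together across arrays in a way that held in subsets. Zic2 and Zic5 had the highest correlation of the 6 pairs over 9 arrays, Pearson r = 0.68 (exact permutation p = 0.0483, adjusted p = 0.290) and Spearman rho = 0.48 (exact permutation p = 0.194, adjusted p = 0.689). On deviations from the group means, which keep all 9 arrays, r was 0.74. Without wild-type 5 and knockout 4, the arrays farthest from the Zic2 median, r was 0.34, and within the 6 letter-titled arrays it was -0.65. The positive relation was thus not seen within the letter-titled arrays, and both genes were higher on the number-titled arrays. The part of the title style in the correlation was not tested. Zic1 and Zic4 had r = -0.34 (exact permutation p = 0.400, adjusted p = 0.479) and rho = -0.07 (exact permutation p = 0.880, adjusted p = 0.982), with r = 0.05 without wild-type 4 and knockout 2 and r = 0.38 within the letter-titled arrays. The remaining 4 pairs had r between -0.57 and -0.04 and no adjusted p under 0.334. The 3 number-titled arrays alone are too few for a correlation.

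The genes closest to each member by Pearson r over the 9 arrays, among 8754 named genes with an SD of at least 0.3 (predicted, numbered and Riken transcripts left out), differed from member to member. For Zic1 they were Ppm1h (0.994), Wwtr1 (0.968) and Lrfn1 (0.963). For Zic2 they were Tcl1b5 (0.967), Septin1 (0.963) and Lysmd3 (0.962), for Zic4 Sftpb (0.937), Ifnlr1 (0.935) and Slc17a9 (0.934), and for Zic5 Hmg20b (0.978), Platr14 (0.973) and the histone gene H3c4 (0.967). With 9 points and 8754 genes, values of this size are a description only, and no member was among the closest 3 of another.

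The Gli and Glis genes, the closest zinc finger relatives of the Zic family, were compared as a list of 6, all measured. Limma called 2 of them, Gli1 and Gli2, higher than the pool in wild-type (12.9% of all values) and 0 in knockout (4.28% of all values). Between genotypes 0 of 6 passed, with a median difference of -0.16 beside -0.003 over all named genes. Gli1, the standard readout of Hedgehog activity, averaged 0.71 ± 0.29 (SD, n = 5) in wild-type and, in knockout, 0.22 ± 0.46 (SD, n = 4), knockout minus wild-type being -0.49 (SE 0.239, limma adjusted p = 0.917). Gli2, the main activator, averaged 1.23 ± 0.25 (SD, n = 5) and 0.61 ± 0.68 (SD, n = 4) in the same order, -0.62 apart (SE 0.305, limma adjusted p = 0.919). Gli3, the main repressor, varied most, from -0.79 to 3.54 over the 9 arrays. Glis3 differed most by genotype, with wild-type at -0.29 ± 0.73 (SD, n = 5) and knockout at 1.26 ± 1.01 (SD, n = 4), without passing (limma adjusted p = 0.917). Glis1 (-0.01) and Glis2 (-0.31) showed smaller differences between genotypes.

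**Figure D4:**
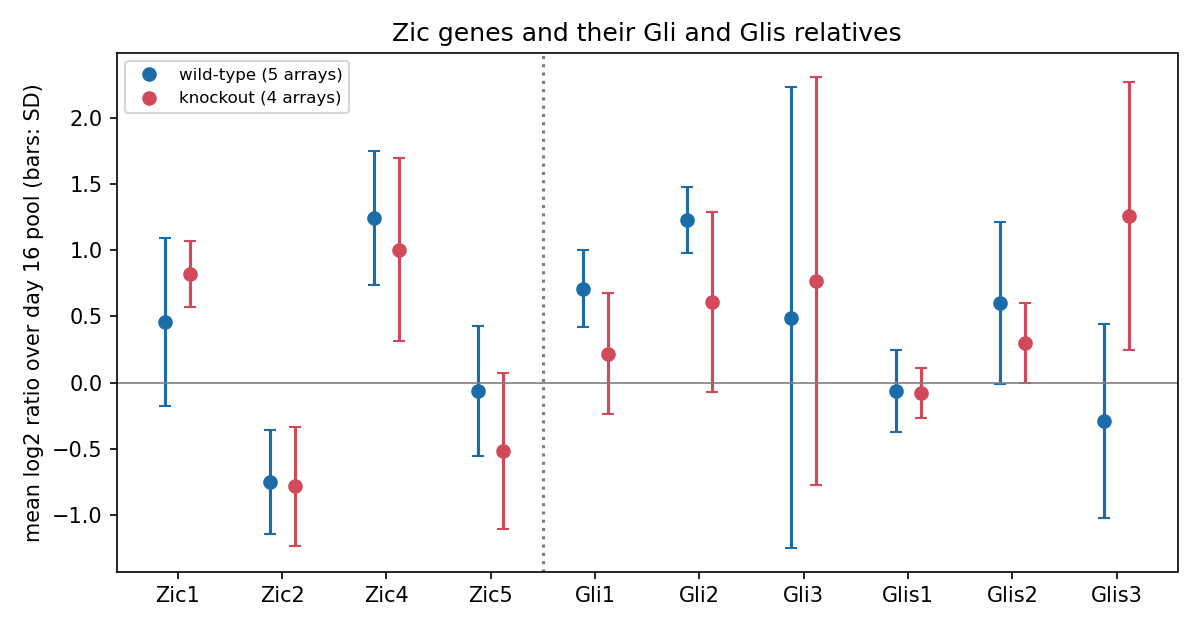
Mean log2 ratio over the day 16 pool (vertical axis) with SD bars for the 4 Zic genes, left of the dotted line, and their Gli and Glis relatives, in wild-type (blue, 5 arrays) and knockout (red, 4 arrays). Zic2 is the gene with both means clearly below 0, at -0.75 and -0.78, and Gli3 and Glis3 have the widest bars.

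The cell populations that carry Zic genes were represented by lists chosen with earlier results of these data known. Counts of calls against the pool are to be read beside the shares over all values, 12.9% higher and 12.1% lower in wild-type and 4.28% and 3.35% in knockout, so fewer calls in knockout are no sign of a difference between genotypes. Of 15 transcription factors of the granule lineage, 8 were called higher and 2 lower than the pool in wild-type, with a median ratio of 0.67, and 4 higher and 0 lower in knockout (median 0.59). None of the 15 passed between genotypes. Of them 10 were lower and 5 higher in knockout, with a median difference of -0.265, and the genes named by p and size were Atoh1 (-1.49), Mycn (-1.17) and Barhl1 (-0.60) (limma adjusted p = 0.917 or more for each). Of 11 measured proliferation genes, all 11 were called higher than the pool in both genotypes, with a median of 3.34 in wild-type and 1.97 in knockout. All 11 were lower in knockout (median difference -1.19) and 0 passed, among them Prim1 (-0.86), Kif2c (-1.37), Aurkb (-1.63) and Bub1 (-1.48). Gene-averaged Zic ratios lay between -1.26 and 1.89 on arrays where the mean of the proliferation list ran from 0.99 to 3.61, and its part in the Zic values was not tested.

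The remaining cell type lists gave the following, with 12.1% of all values called lower in wild-type and 3.35% in knockout. Of 9 genes listed for mature granule neurons, 5 were called lower than the pool in wild-type and 0 in knockout (median -0.48 and -0.26). Calb2 (0.33), Vamp2 (0.21) and Gabra6 (0.39) of that list were higher in knockout without passing. Of 10 meningeal genes, 7 were called lower in wild-type and 2 in knockout. The list mean per array was below 0 on every array, between -0.76 and -0.22 in wild-type and between -0.48 and -0.28 in knockout. Between genotypes 8 of the 10 were higher and 2 lower in knockout (median 0.13), and Col1a2 (0.44) and Ogn (0.47) did not pass. All 5 measured Purkinje genes (Pcp2 0.54, Calb1 0.50 and Pcp4 0.53 between genotypes) and 4 of 5 interneuron genes (Slc32a1 0.46, Kit 0.33 and Slc6a5 0.48) were called lower than the pool in wild-type. In knockout 1 Purkinje gene and 0 interneuron genes were called lower. All 5 Purkinje genes were higher in knockout than in wild-type, and of the interneuron genes 4 were higher and 1 lower, without passing. All 4 measured oligodendrocyte genes were called lower in wild-type and 3 of 4 in knockout, with Mag at 0.52 and Mobp at 0.42 between genotypes. Of 4 microglial genes 1 was called higher and 1 lower in wild-type and 0 in knockout, and Aif1 (-0.74) and Cx3cr1 (-0.53) were lower in knockout without passing. Of 2 unipolar brush cell genes Eomes was called lower than the pool in both genotypes and Lmx1a in neither, with -0.36 and -0.17 between genotypes. The 5 choroid plexus genes (Ttr -0.65, Aqp1 -0.28 and Clic6 -0.18 between genotypes) had array means from -2.40 to 0.57, the widest range of these lists, and none was called. A ratio carries no level, so the presence of these cells could not be checked, and their part in the Zic values was not tested.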

How the data were processed

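The deposited table holds log2 ratios, processed by the authors, of Cy5 sample over Cy3 reference, 1 per array feature. Agilent Feature Extraction is named per the submitters' processing notes, while the version, the filters and how background and dyes were handled are not given in the sources. The base was read from the values (20 to 280 per array are larger than log10 of a 16-bit ratio can be) and the direction from the dyes per the labels. No intensities came with the ratios, and the number of arrays limits the precision.

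Of 45220 features, 33653 have 1 symbol. These were averaged per gene and the others kept singly, which gave 30654 values per array. Knockout, wild-type and their difference were fitted with limma 3.58.1 in R 4.3.3 (lmFit, eBayes, two-sided, no covariates, checked on simulated data), with Benjamini-Hochberg adjustment over all values and a threshold of 0.05. Exact tests ran in Python 3.11.15. Members, gene lists (76 of 81 genes measured) and tests were chosen with earlier results of these data known. Genes named are the members, Pycard, all Gli and Glis genes, per other list the 2 genes lowest in p and the 2 largest in difference, and the 3 genes closest to each member. Alternatives were blocks, arrays left out, other normalizations, filters, weights and priors.

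Replicate numbers 1 to 4 occur in both genotypes. After subtracting group means, arrays sharing a number correlated at 0.244, 0.247, 0.446 and 0.304, all over 0.1. Some arrays with different numbers did so too. These were wild-type 1 with knockout 2 (0.261), wild-type 5 with knockout 4 (0.289) and wild-type 2 with knockout 1 (0.191). The rest lay at 0.012 or lower. For knockout 2 the array sharing its number (0.247) was thus not the closest. The numbers were taken only as a possible pairing, given as a block. The pairing comes from the sample names and is not explained in the labels.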

Additional observations from a re-analysis of the deposited data

Results flagged for a closer look

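Among the Zic genes and features, Pycard and the genes named from the lists, 88 groups of 4 or 5 arrays were examined. An array far from the rest (Dixon's gap over range) was found in 7. The cut flags about 1 in 20 of independent groups with a normal spread. These groups share arrays and hold Zic genes beside their own features, so the 7 were not tested against that rate. No Zic gene or feature was among the 7. Gli3 was highest on wild-type 3 (3.54) and on knockout 3 (3.07), arrays that share a replicate number. Single low arrays were Glis3 at -1.58 and Slc6a5 at -1.50 on wild-type 5, Calb1 at -1.46 on knockout 3, Lmx1a at -1.30 on wild-type 3 and Mag at -2.09 on wild-type 4. No explanation was tested.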

How the results depend on the processing

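No alternative called a Zic difference between genotypes (78 fits, adjusted p from 0.47 to 1.0). The number-titled arrays alone are not counted there, since they gave 0 calls over all values in any comparison. The sign of the Zic2 difference (-0.030) turned with the replicate block (0.137), the title style block (0.076), in number-titled arrays (0.269) and with array weights (0.017), and it ran from -0.249 to 0.137 with an array left out. Zic4 turned in letter-titled arrays (0.021) and with array weights (0.041), and its difference was 0.0 after quantile normalization. It ran from -0.448 to 0.033 when an array was left out. The replicate block changed no call of a Zic gene.

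Against the pool, with an array left out, the wild-type mean ran from 0.325 to 0.723 for Zic1, -0.917 to -0.683 for Zic2 and -0.218 to 0.055 for Zic5, and the knockout mean from 0.706 to 0.906 for Zic1, -0.999 to -0.661 for Zic2, 0.794 to 1.275 for Zic4 and -0.735 to -0.266 for Zic5. Letter-titled arrays alone gained calls for Zic1 (0.637 and 0.906 in wild-type and knockout), Zic2 in knockout (-0.999) and Zic4 in knockout (1.275). Number-titled arrays alone lost those of wild-type Zic2 (-0.391) and Zic4 (1.224) and put Zic5 at 0.444 and 0.143. Array weights gained calls for Zic1 (0.648 and 0.988) and, in knockout, Zic2 (-0.896), Zic4 (1.375) and Zic5 (-0.709). Quantile normalization did so in knockout for Zic1 (1.085), Zic2 (-0.997) and Zic4 (1.192), the style block for Zic2 (-0.603), and testing features singly for Zic2 (-0.780). The style block put wild-type Zic5 at 0.024. The causes were not tested.

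Between members, Zic1 minus Zic4 turned to 0.185 with feature 25926 alone, chosen after seeing the data. The genotype effect on Zic2 minus Zic4 was -0.224 after quantile normalization and ran from -0.281 to 0.547 with an array left out, and that on Zic4 minus Zic5 from -0.244 to 0.706. The others ran from 0.115 to 0.699 (Zic1 minus Zic2), 0.177 to 0.906 (Zic1 minus Zic4), 0.455 to 1.123 (Zic1 minus Zic5) and 0.216 to 0.609 (Zic2 minus Zic5). The replicate block, added for these gaps after seeing the data, turned Zic4 minus Zic5 to -0.112 and no other. Without the 2 arrays farthest from the median, r turned to 0.213 (Zic1 with Zic2), 0.055 (Zic1 with Zic4), 0.283 (Zic1 with Zic5), 0.816 (Zic2 with Zic4) and 0.044 (Zic4 with Zic5), and in letter-titled arrays to 0.132 (Zic1 with Zic2), 0.376 (Zic1 with Zic4), 0.755 (Zic2 with Zic4) and -0.648 (Zic2 with Zic5).

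Over all values the count called between genotypes was 5 as reported, 0 with the replicate block or in either title style alone, 3 after quantile normalization, 7 with array weights and 1 to 6 with an array left out. In wild-type over the pool 3948 were higher and 3702 lower, against 1707 and 1130 with the SD filter (18756 values tested) and 0 in number-titled arrays. In knockout 1312 were higher and 1028 lower, against 2142 and 2161 with the style block, 2569 and 2080 after quantile normalization, 4345 and 4189 with array weights, 492 and 118 with the SD filter, 666 and 428 with a trended robust prior, 0 in number-titled arrays, and 336 to 1798 higher and 217 to 1552 lower with an array left out.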
